A study of Mus musculus with 305 samples.

Results

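The samples described here are bulk RNA-seq libraries that compare a heroin history with a saline history in mice that all met heroin on the last day. All mice were male and wild-type. They worked for intravenous infusions of saline or of the opioid heroin over 15 d and then spent 30 d in withdrawal. The last day brought a challenge with saline or heroin and a test of drug seeking that lasted 2 h. The HH mice had a history of heroin and a heroin challenge. The SH mice had a history of saline and met heroin at the challenge. Heroin at the challenge, the withdrawal and the test were therefore common to both groups, and by the labels they differed in the history. The HS and SS mice had the same histories and a saline challenge, and they serve here for a shared estimate of the spread and for a comparison of the history under each challenge. Each group had 8 mice, and 6 regions were taken from each mouse, under the labels BLA (basolateral amygdala in the field's usage), NAc (nucleus accumbens), PFC (prefrontal cortex), VTA (midbrain ventral tegmental area), dStri (the dorsal part of the striatum) and vHPC (the ventral part of the hippocampus). Members were all HH and SH libraries of the 6 regions with a total of at least 5 M counts, which gave 95 libraries, 31.1% of those of the series. One library was dropped by this rule, VTA of HH mouse 7, so VTA rests on 7 HH and 8 SH libraries.

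Heroin acts through the mu opioid receptor (Oprm1), and in the ventral tegmental area it releases dopamine neurons from inhibition, which raises dopamine in the nucleus accumbens. The basolateral amygdala, prefrontal cortex and ventral hippocampus send glutamatergic input to the accumbens and carry cue and context information in drug seeking, while the dorsal striatum is linked to habitual responding. A first exposure to an opioid also engages stress hormones, immediate early genes and body temperature, and repeated exposure can blunt or sensitize such responses. A contrast of HH with SH holds a changed response together with any difference that the history left before the challenge. Only the comparison with HS and SS, given below, sets these apart.

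The totals of the 95 libraries ranged from 22.2 to 55.7 M counts (median 32.0 M), and that of the dropped library was 0.890 M. Regional labels matched their markers: the summed level of 12 dopamine neuron markers had a median of 4499 CPM (counts scaled to library size) in VTA and of at most 130 CPM in the other regions, and that of 14 striatal projection neuron markers was 13169 CPM in dStri, 7871 CPM in NAc and at most 1336 CPM elsewhere. Some libraries stood out by high or low levels of the markers of a tissue or cell type, and the cause was not tested. In vHPC, the choroid plexus markers summed to 15985 and 16323 CPM in HH mice 18 and 21, and to at most 253.6 CPM in the other 6 HH libraries and at most 1305 CPM in the SH libraries. In BLA, HH mice 1 and 5 had 3145 and 1559 CPM of the same markers, and HH mouse 16 had 460 CPM of dopamine neuron markers against 73.96 to 137.5 CPM in the other 15 libraries. In VTA, 4 libraries were low in dopamine neuron markers: HH mouse 25 had 905 CPM, and SH mice 24, 4 and 17 had 973, 1081 and 1981 CPM, where every other library had at least 3964 CPM. In the striatal regions, the mean log2 CPM of cortical and hippocampal excitatory neuron markers was highest in SH mice 19 and 27 in NAc and in SH mice 10, 19 and 27 in dStri. Such levels were not limited to these libraries, and HH mice 5, 7 and 21 and SH mouse 10 in NAc, HH mice 5 and 7 and SH mouse 4 in dStri, SH mouse 29 in vHPC (1305 CPM of choroid plexus markers) and SH mouse 17 in BLA (624 CPM) were high as well. A second fit therefore left out each HH or SH library past 1 level that was the same for both groups, chosen after seeing the data: choroid plexus markers over 600 CPM in BLA and vHPC, striatal markers over 1000 CPM in vHPC, dopamine neuron markers over 200 CPM in BLA or under 3000 CPM in VTA, and a mean log2 CPM of excitatory markers over 3.5 in NAc and dStri. It left out 24 libraries, 4 in BLA, 6 in NAc, 4 in VTA, 6 in dStri and 4 in vHPC, called the 24 libraries from here on, and down to 4 SH libraries remained in dStri. A list that set the level in a region is evened out there by the cut itself, so its recomputed values are a description and no test. The sample codes of BLA in the labels start with a set number. Codes of the other regions hold none, and the set of a mouse was carried over to them from its BLA code. Sets 1 and 2 held 6 and 2 HH mice and 4 and 4 SH mice. What the sets stand for is not given in the sources used here.

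No gene differed between HH and SH at an adjusted p under 0.05 in any of the 6 regions by edgeR's quasi-likelihood test, so 0% of the 19396 to 19976 genes tested per region were called. At an unadjusted p under 0.05, 898 genes (4.63%) were higher and 522 (2.69%) lower in HH of vHPC, the most of the 6 regions in total; dStri had more lower genes. VTA had 548 higher (2.79%) and 467 lower (2.38%), and dStri 433 higher (2.22%) and 554 lower (2.84%). BLA had 372 higher (1.9%) and 369 lower (1.89%). PFC had 1.51% higher and 391 genes (1.96%) lower. The fewest were in NAc, with 220 higher (1.11%) and 204 lower (1.03%). Both directions together made 2.15% in NAc, 3.46% in PFC, 3.79% in BLA, 5.06% in dStri, 5.17% in VTA and 7.32% in vHPC. The threshold itself gives a share of 0.05 on average where no gene differs. The lowest adjusted p was 0.0796 in vHPC, 0.130 in NAc, and at least 0.943 in each of the other 4 regions. A second tool, DESeq2, called 1 gene in NAc, 1 in vHPC and none in the other regions.

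Without the 24 libraries, edgeR again called 0 genes in each region. The shares at an unadjusted p under 0.05 were then 1.06% higher and 1.501% lower in vHPC, 0.916% and 1.09% in BLA, 1.00% and 0.831% in NAc, and 1.32% and 1.79% in VTA. In dStri they were larger, with 944 genes higher (4.56%) and 753 lower (3.63%).

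**Figure D1:**
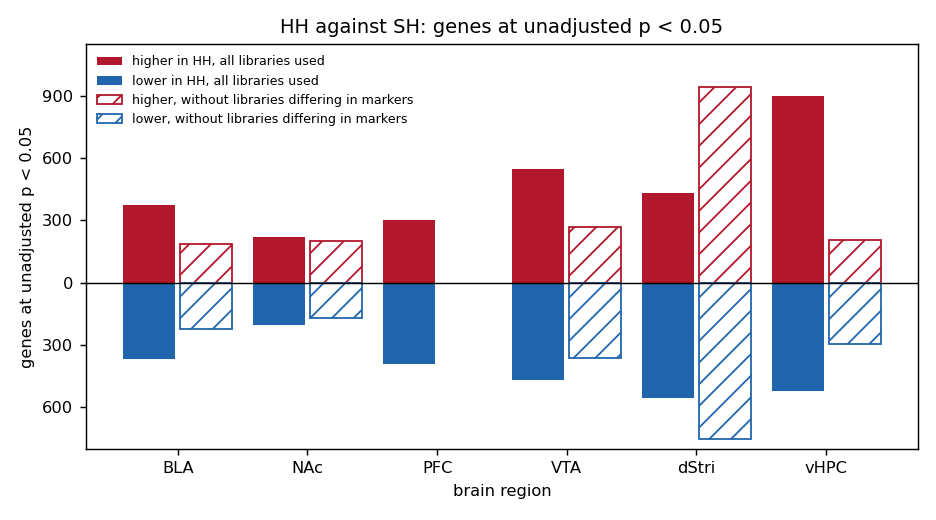
Bars give, per brain region (x axis), the number of genes at an unadjusted p under 0.05 by edgeR (y axis), higher in HH above the line and lower in HH below it; filled bars use all 95 libraries and hatched bars leave out the 24 libraries (none in PFC). In vHPC the filled bar for higher genes, at 898, is far longer than the hatched one, while in dStri the hatched bars, at 944 and 753, are the longer ones.

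The precision bears on how large a change could go unseen. For genes that averaged 1 CPM or more, the 95% interval of the log2 difference had a median half-width of 0.178 in PFC to 0.251 in vHPC, a factor of 1.13 to 1.19. The interval lay within a 1.5-fold change in either direction for 72.03% of genes in vHPC and for 80.2 to 85.4% in the other regions. Averaged over the regions of a mouse, that share was 98.3%.

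The gene nearest to a call in any single region with a named product was Cdkl4 in NAc, which encodes a kinase of the cyclin-dependent kinase-like family (chromosome 17, 80523550 to 80577813, GRCm38). In SH libraries its lowest, median and highest level was 8.06, 9.72 and 12.9 CPM, and in HH libraries 5.08, 6.78 and 7.67 CPM. Every HH library lay under the lowest SH library. Leading genes were picked by their p, so a separation of the groups, here and below, describes them and is no further support. The share of all genes whose groups separate was not counted. The mean was 6.52 ± 0.920 CPM in HH and 9.96 ± 1.62 CPM in SH (SD, n = 8 each). The log2 difference was -0.61 ± 0.12 (SE), with an adjusted p of 0.130 by edgeR and of 0.00602 by DESeq2, so the call depends on the tool. Within code sets 1 and 2 it was -0.61 and -0.63. Without the 6 NAc libraries it was -0.70, with an adjusted p of 0.572 by edgeR. Cdkl4 was lower in HH in all 6 regions, by -0.03 to -0.61, and its mean over regions differed by -0.27 ± 0.09, at an unadjusted p of 0.00478 by limma. In vHPC its levels spread widely within both groups, over 10.4 to 30.3 CPM in HH and 12.8 to 45.6 CPM in SH.

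The remaining leading genes of NAc were all at an adjusted p of 1.00 by edgeR. Rest, the repressor of neuronal genes in non-neuronal cells, was at 9.35 ± 1.11 CPM in HH and 7.44 ± 0.695 CPM in SH, a log2 difference of 0.33 ± 0.10, and 7 of 8 HH libraries lay above the highest SH library. The zinc finger gene Zfp11 was 0.31 ± 0.09 higher on the log2 scale, and Rerg, a small GTPase of the Ras family, 0.51 ± 0.15 higher. Crhbp, which binds and buffers corticotropin-releasing hormone, was lower by -0.58 ± 0.19, and C1ql3, a secreted synaptic adhesion protein, by -1.11 ± 0.35. Without the 6 NAc libraries high in excitatory neuron markers the differences were -0.31 for Crhbp and -0.45 for C1ql3, at unadjusted p of 0.124 and 0.146 by edgeR, while Rest was at 0.34, Zfp11 at 0.38 and Rerg at 0.46.

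In PFC the groups of Serpina3n did not overlap. This gene (chromosome 12, 104406729 to 104414329, GRCm38) encodes a secreted serine protease inhibitor of the acute phase response that reactive astrocytes make. SH libraries had 11.1, 14.6 and 16.0 CPM as lowest, median and highest, and HH libraries 16.8, 17.6 and 20.0 CPM. All 8 HH libraries were thus above all SH libraries. The log2 difference was 0.34 ± 0.09, and it was 0.28 and 0.40 within code sets 1 and 2, but the adjusted p over all genes was 0.999 by edgeR. Serpina3n was higher in HH in each of the other regions too, by 0.15 in VTA to 0.50 in vHPC, and in dStri at an unadjusted p of 0.0229 by edgeR. In vHPC the libraries of both groups were split. HH mice 1, 5, 7 and 9 and SH mice 4, 10 and 19 had 55.3 to 87.6 CPM, and the others 16.9 to 44.4 CPM. The same libraries had 10.4 to 13.7 CPM of Cdkl4, against 18.2 to 45.6 CPM in the others. The cause of this split was not tested.

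Apold1, an endothelial early response gene, was at 7.84 ± 1.07 CPM in HH and 5.46 ± 1.22 CPM in SH of PFC, and Tmem53, a small transmembrane protein gene, at 1.87 ± 0.676 and 0.933 ± 0.331 CPM. Their log2 differences were 0.52 ± 0.15 and 1.00 ± 0.27, with all 8 HH libraries above the SH mean in each case. Lower in PFC were Jakmip3, which links Janus kinases and microtubules (-1.48 ± 0.46), Coprs, a partner of the arginine methyltransferase PRMT5 (-0.28 ± 0.09), and Wdfy4, known from antigen cross-presentation by dendritic cells (-0.50 ± 0.17). Their adjusted p were 0.999 by edgeR.

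**Figure D2:**
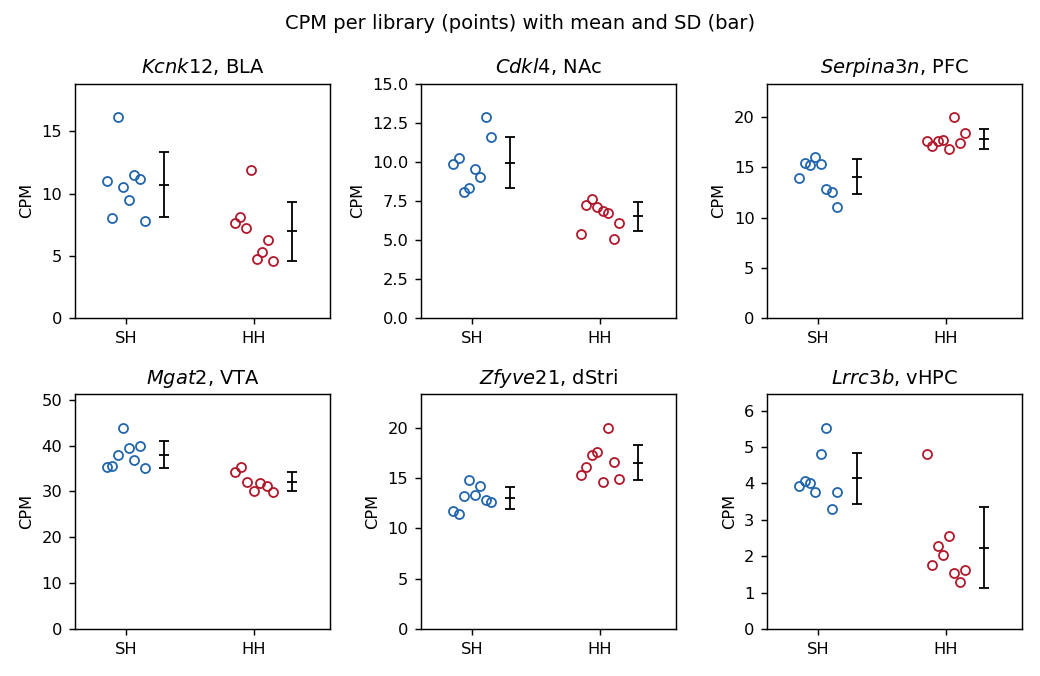
CPM of 6 genes in the region where each was among the leading genes (y axis), for SH and HH libraries (x axis); points are libraries, 8 per group and 7 HH in VTA, and bars give the mean with SD. The groups do not overlap for Cdkl4 in NAc and Serpina3n in PFC, and 1 HH library lies inside the SH range for Lrrc3b in vHPC.

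In VTA the leading differences were small and even across libraries. Mgat2, an enzyme of N-glycan processing in the Golgi, had 35.2, 37.4 and 43.9 CPM as lowest, median and highest in SH and 29.8, 31.8 and 35.4 CPM in HH. Only 1 of 7 HH libraries reached into the SH range. Its log2 difference was -0.25 ± 0.06. Sft2d3, a vesicle transport gene, had 4.66 to 8.10 CPM in SH and 3.49 to 4.64 CPM in HH, with no overlap, and differed by -0.46 ± 0.12, and Nars2, the mitochondrial asparaginyl-tRNA synthetase, by -0.30 ± 0.08. Higher in HH were Abcf1, which acts in translation initiation (0.18 ± 0.05), Sh2b1, an adaptor of leptin and insulin receptor signalling (0.38 ± 0.11), and Bcl2l1, which encodes the survival protein Bcl-xL (0.31 ± 0.09). Each of these 6 genes had all 7 HH libraries on the same side of the SH mean, and an adjusted p of 0.943 by edgeR. Without HH mouse 25 and SH mice 4, 17 and 24, which had few dopamine neuron markers, the 6 differences kept their sign and ranged from -0.48 for Sft2d3 to 0.35 for Sh2b1.

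In dStri Zfyve21, a FYVE-domain protein that binds endosomal lipids, had 11.5, 13.0 and 14.8 CPM as lowest, median and highest in SH and 14.6, 16.3 and 20.0 CPM in HH. Of the 8 HH libraries 7 were above the highest SH library. The log2 difference was 0.34 ± 0.08, larger in code set 1 (0.44) than in set 2 (0.15). Klf2, a transcription factor that endothelial cells switch on under blood flow, was 0.58 ± 0.15 higher, and Steap4, a metalloreductase induced by inflammation, 1.15 ± 0.32 higher. Lower were Atrx, a chromatin remodeller (-0.24 ± 0.06), Erc1, a scaffold of the presynaptic active zone (-0.28 ± 0.07), and Sestd1, a regulator of TRPC channels (-0.28 ± 0.07), each with all 8 HH libraries under the SH mean. The adjusted p was 0.981 by edgeR for all 6 genes. Without the 6 dStri libraries the differences were 0.33 for Zfyve21, 0.49 for Klf2, 0.78 for Steap4, -0.28 for Atrx, -0.23 for Erc1 and -0.26 for Sestd1.

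In vHPC Lrrc3b, a leucine-rich repeat membrane protein gene (chromosome 14, 15357515 to 15438987, GRCm38), had 3.30, 3.97 and 5.53 CPM as lowest, median and highest in SH and 1.28, 1.90 and 4.82 CPM in HH. All HH libraries but 1 were under the lowest SH library. The log2 difference was -0.89 ± 0.23, and -0.91 without the 4 vHPC libraries. Slc6a3, the dopamine transporter, was at 0.567 ± 0.240 CPM in HH and 2.05 ± 0.971 CPM in SH, against 1274 CPM in SH of VTA. Zfp879, a zinc finger gene, was lower by -0.62 ± 0.17. Tmem134 was higher by 2.03 ± 0.48 from 0.399 CPM in SH, Msrb3, a methionine sulfoxide reductase, by 0.89 ± 0.23, and Plvap, which forms the diaphragms of fenestrated vessels, by 0.62 ± 0.17. Leaving out the same 4 libraries gave 1.97 for Tmem134, 0.43 for Msrb3, 0.39 for Plvap, -1.92 for Slc6a3 and -0.45 for Zfp879. Among vHPC genes the adjusted p was 0.679 by edgeR for these 6. The DESeq2 call in vHPC was Gm33533, a model gene at 0.255 CPM in HH and 1.32 CPM in SH, named because it was the only call; its adjusted p was 0.000349 by DESeq2 and 0.0796 by edgeR.

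In BLA Kcnk12, a potassium channel subunit, had 7.79, 10.8 and 16.1 CPM as lowest, median and highest in SH and 4.61, 6.74 and 11.9 CPM in HH. The groups overlapped, with 6 of 8 HH libraries under the lowest SH library. Its log2 difference was -0.62 ± 0.17. Cstad (-1.05 ± 0.29) and the fibrillar collagen gene Col1a1 (-1.16 ± 0.32) were lower, with 1 SH library at 15.9 CPM for Col1a1. Hdc, the enzyme that makes histamine, was higher by 0.97 ± 0.29 and Auts2, a neurodevelopmental regulator, by 0.97 ± 0.31, but only within code set 1, where the differences were 1.13 and 1.12; in set 2 they were -0.11 and -0.13. The difference of Slc6a3 in BLA, 3.34 ± 1.04, came from 1 library: HH mouse 16 had 116.5 CPM, and the median of the HH libraries was 0.676 CPM. Without the 4 BLA libraries, that one among them, it was -1.20. The others were then at -0.49 (Kcnk12), -1.36 (Cstad), -1.19 (Col1a1), 0.77 (Hdc) and 0.86 (Auts2).

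A difference in the average over regions was tested on the mean over regions of each mouse. The same 16 mice gave the 6 regions, and regions are not replicates. A single region can carry such a mean, so it does not by itself show a difference common to all regions. Limma called 0 of 17574 genes (0%), with a lowest adjusted p of 0.959, and 415 genes (2.36%) were higher and 425 (2.42%) lower at an unadjusted p under 0.05. The values that follow are log2 CPM centred per region, averaged over the regions of a mouse.

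Scd3, a stearoyl-CoA desaturase of fatty acid synthesis (chromosome 19, 44203269 to 44244016, GRCm38), was the only one of the 20 leading genes whose groups did not overlap. These 20 were picked by their p, so this is a description and no further support. The SH mice had -0.32, -0.11 and 0.03 as lowest, median and highest, and the HH mice 0.08, 0.16 and 0.41. Its difference was 0.31 ± 0.08, with 0.32 and 0.34 within the code sets and 0.31 when the 24 libraries were left out of the means. By region it ran from 0.12 in NAc to 0.46 in PFC, and in no region did the groups separate. Epn3, an epsin of the endocytic machinery, had the lowest p, with -1.01, -0.40 and 0.04 in SH and -0.01, 0.44 and 0.95 in HH. The groups met only at their edges. Its difference was 0.85 ± 0.20, with 2.31 in vHPC, 1.54 in BLA, 1.20 in NAc and -0.21 to 0.52 in the other regions, and without the 24 libraries it was 0.61. Mfrp, itself one of the choroid plexus markers, differed by 1.10 ± 0.32 and by 0.91 without those libraries.

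Fas, the death receptor, was higher in HH in all 6 regions, by 0.11 in BLA to 0.67 in dStri. SH mice had -0.70, -0.23 and -0.05 as lowest, median and highest over regions, and HH mice -0.16, 0.07 and 0.64. All 8 HH mice were above the SH mean and the difference was 0.39 ± 0.12 (0.39 without the 24 libraries). Serpina3n differed by 0.33 ± 0.10 and by 0.39 without them. The others higher in HH were small: Cnppd1 (0.11 ± 0.03), Tom1, which acts in endosomal sorting (0.11 ± 0.03), Samd15 (0.27 ± 0.08), Klhdc7a (0.20 ± 0.06) and AA465934 (0.30 ± 0.09). In the same order these 5 were at 0.060, 0.14, 0.30, 0.13 and 0.31 without the 24 libraries.

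Lower over the regions was Zfp786, a zinc finger gene, by -0.20 ± 0.05. SH mice had -0.09, 0.07 and 0.19 and HH mice -0.36, -0.14 and 0.04, with all 8 HH mice under the SH mean. Its difference was -0.25 when the 24 libraries were left out. It was lower in 5 of 6 regions and 0.04 higher in BLA. Trh, the precursor of thyrotropin-releasing hormone, was lower by -0.81 ± 0.25, most of all in vHPC, where SH libraries ranged from 0.0294 to 65.1 CPM and HH libraries from 0 to 1.88 CPM; in the other regions the difference was -0.09 to -0.48. Over regions without the 24 libraries it was -0.91. The cell adhesion gene Chl1 differed by -0.15 ± 0.04 and by -0.087 without the 24 libraries. St3gal1 (-0.25 ± 0.08), Zfp879 (-0.23 ± 0.07), the iron regulator Ireb2 (-0.11 ± 0.03), Usp34, a ubiquitin protease of Wnt signalling (-0.09 ± 0.03), Fam163b (-0.36 ± 0.11) and Fam205c (-0.19 ± 0.06) were lower as well. Leaving out the 24 libraries gave -0.16 for St3gal1, -0.17 for Zfp879, -0.061 for Ireb2, -0.092 for Usp34, -0.35 for Fam163b and -0.086 for Fam205c. The adjusted p of all 20 genes was 0.959 by limma.

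**Figure D3:**
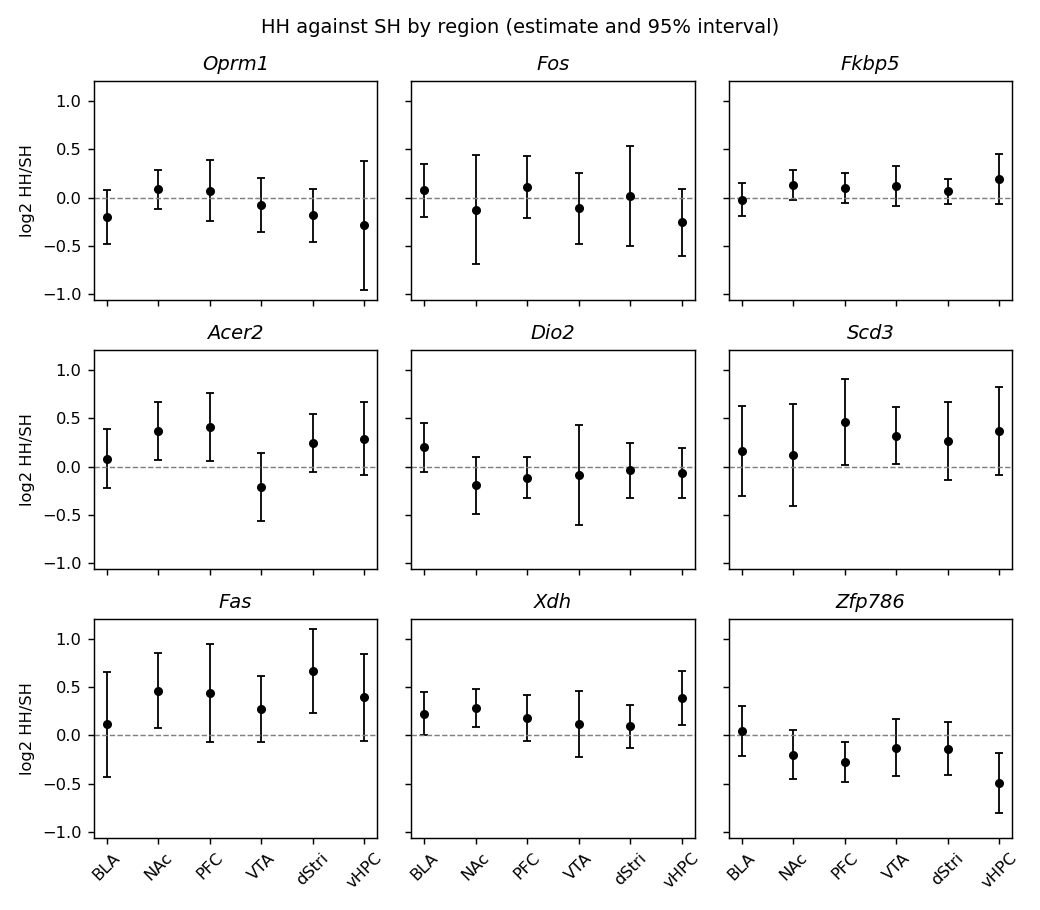
Log2 difference of HH from SH (y axis) in each region (x axis) for 9 genes; points are edgeR's estimates and bars their 95% intervals. Intervals of Oprm1, Fos, Fkbp5 and Dio2 include 0 in every region, Scd3, Fas and Xdh lie above 0 in all 6 as estimates, and Acer2 is below 0 only in VTA.

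Of the 17574 genes tested everywhere, 0.762% were higher and 0.751% lower at an unadjusted p under 0.05 by edgeR in at least 2 regions. In exactly 2 regions the shares were 0.734% and 0.740%; 5 genes were higher and 2 lower in 3 regions, and none in 4 or more. Of the genes past this threshold in a region, 74.7% in NAc to 84.6% in VTA passed it there alone. The sign of the difference was the same in all 6 regions for 356 genes higher (2.03%) and for 1.56% lower in HH. Regions of a mouse share that mouse, so these shares are a description. The shares that would arise with no difference in any region were not computed. A gene past the threshold in several regions is therefore not shown to differ in them.

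The 5 genes higher in 3 regions were Mfrp, Xdh, Trpv4, Lrg1 and Tmem252. Xdh, the xanthine oxidoreductase of purine breakdown, was higher in BLA (0.23 ± 0.11), NAc (0.28 ± 0.10) and vHPC (0.39 ± 0.14). Lrg1, an acute phase glycoprotein made by vessels, was higher in PFC (0.92 ± 0.41), dStri (0.96 ± 0.35) and vHPC (1.18 ± 0.49), and in these 3 regions its HH libraries ranged from 0.592 to 17.7 CPM and its SH libraries from 0.375 to 4.26 CPM, with wide overlap. Tmem252 was higher in NAc (0.59 ± 0.29), PFC (0.68 ± 0.31) and vHPC (0.60 ± 0.28). Trpv4, a calcium channel of choroid plexus and vessels, was higher in BLA, NAc and vHPC (0.58 to 2.60). Lower in 3 regions were Rnu12, the U12 RNA of the minor spliceosome, in BLA (-0.95 ± 0.35), PFC (-0.78 ± 0.29) and VTA (-0.97 ± 0.44), and Gtdc1, a glycosyltransferase-like gene, in NAc, dStri and vHPC (-0.19 to -0.20). Rnu12 was higher in dStri (0.81 ± 0.36), so it had both directions. Without the 24 libraries Mfrp, Lrg1 and Tmem252 were higher in 2 regions and Rnu12 lower in 2 and higher in 1, and Xdh, Trpv4 and Gtdc1 passed in none.

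Whether a difference belonged to a single region was tested within mice, as the value in that region minus the mean of the other regions. No gene passed in any region by limma (0% of 17574). At an unadjusted p under 0.05, the shares of genes higher and lower in HH were 2.28% and 2.32% in BLA, 1.16% and 1.27% in NAc, 2.38% and 1.89% in PFC, 3.51% and 3% in VTA, 2.17% and 2.78% in dStri, and 2.03% and 2.94% in vHPC. The lowest adjusted p were 0.244 for Lrrc3b in vHPC (-1.07 ± 0.21) and 0.461 for Acer2 in VTA (-0.50 ± 0.10). Acer2, a Golgi ceramidase that turns ceramide into sphingosine, was 0.37 ± 0.15 higher in NAc and 0.41 ± 0.17 higher in PFC, and its difference was -0.21 ± 0.17 in VTA. In VTA, SH libraries had 16.8, 21.6 and 32.1 CPM as lowest, median and highest and HH libraries 12.7, 17.4 and 26.0 CPM. The ranges overlapped widely there.

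Other genes that led against the rest of the brain were Palm2 (0.47 ± 0.10) and Foxred2 (0.31 ± 0.07) in PFC, at an adjusted p of 0.612 by limma. In VTA they were the kinase gene Cdk18 (0.64 ± 0.16) and Tead2, a Hippo pathway factor (-1.11 ± 0.28). In dStri they were Rnu12 (1.38 ± 0.36), Sulf2, which trims heparan sulfate (-0.41 ± 0.10), and Flrt2, an adhesion protein (-0.27 ± 0.07). BLA had the transporter gene Abcc3 (0.52 ± 0.16) and the ubiquitin ligase gene March9 (-0.38 ± 0.10), and NAc had Dhrs11 (0.73 ± 0.23) and Rhno1 (-0.40 ± 0.11). Apold1 in PFC, not among those picked for this test, differed from the other regions by 0.46 ± 0.11. Without the 24 libraries limma called 0 genes in each region, Cdk18 was at 0.36 and Flrt2 at -0.18.

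The difference of HH from SH was set against that of HS from SS, to see whether the history counted for more when heroin was given at the challenge. No gene passed by edgeR in any region (0%), with 360 to 1071 genes at an unadjusted p under 0.05, or by limma over regions, with 995. DESeq2 called 1 gene, Nars2 in VTA. It was at 12.5 CPM in HH and 15.4 CPM in SH, and at 15.7 CPM in HS and 13.0 CPM in SS, so the history went with a lower level under heroin and a higher one under saline. The interaction was -0.57 ± 0.11 on the log2 scale, with an adjusted p of 0.282 by edgeR and 0.0206 by DESeq2. Without the 4 VTA libraries it was -0.52, with an adjusted p of 0.988 by edgeR. Over regions the leading genes were Zfp786 (-0.33 ± 0.07) and Cpsf4l (0.56 ± 0.14), with adjusted p of 0.361 and 0.846 by limma, and without the 24 libraries they were at -0.38 and 0.33. In these recomputed interactions HS and SS libraries stayed in whatever their marker levels, so only the HH and SH side was filtered.

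Cell type markers differed between the groups in some regions, and in bulk tissue fewer cells of a type and less RNA per cell cannot be told apart. All 15 choroid plexus markers were higher in HH of vHPC, 15 of them at an unadjusted p under 0.05 against 4.63% of all genes, with a median log2 difference of 3.69 against 0.01 over all genes tested. Transthyretin (Ttr), the main product of that tissue, had 1.03, 21.9 and 1062 CPM as lowest, median and highest in SH and 1.23, 87.2 and 13675 CPM in HH. Without the 4 vHPC libraries 13 of 15 were higher, none at an unadjusted p under 0.05, with a median of 0.48. The cut in vHPC and BLA was made on the choroid plexus list, which by itself evens that list out there. Meningeal fibroblast markers of vHPC went from 13 of 14 higher and a median of 1.34 to 3 of 14 and -0.46. In VTA 0 of 14 meningeal markers were higher in HH, against 47.2% of all genes, and 1 of 14 without the 4 VTA libraries. Leaving out those libraries thus did not even out the meningeal markers there. In BLA all 15 choroid plexus markers were higher, with a median of 2.17, and 14 of 15 without the 4 BLA libraries, with 1.08.

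Neuronal markers also changed when libraries were left out, but the excitatory list in dStri and NAc and the striatal list in vHPC set the cut themselves. Leaving out libraries past 1 level evens out such a list by construction, so the recomputed values of these lists are no test. In dStri 2 of 13 excitatory neuron markers were higher in HH, 8 were lower at an unadjusted p under 0.05 against 2.84% of all genes, and the median was -1.40. Without the 6 dStri libraries 6 of 13 were higher, none passed that threshold and the median was -0.027. In NAc 4 of 13 were higher with a median of -0.51, and 6 of 13 without the 6 NAc libraries, with -0.029. Striatal markers in vHPC were lower in 12 of 13, 8 of them at an unadjusted p under 0.05 against 2.69% of all genes, and SH mouse 27 had 1430 CPM of them against 396 to 648 CPM in the other libraries. Without the 4 vHPC libraries 13 of 13 were lower, 1 at an unadjusted p under 0.05, with a median of -0.62 in place of -0.96. Dopamine receptor and signalling genes of vHPC, several of which are striatal genes as well, were lower in 8 of 10 with a median of -0.37, among them Drd2 at -1.50 and Drd1 at -0.83. They were lower in 9 of 10 without the 4 libraries, with a median of -0.17. Over regions excitatory neuron markers were lower in 10 of 13 (median -0.15) and cortical interneuron markers in 11 of 12 (-0.10). Oligodendrocyte markers were higher over regions in 13 of 15 (0.13). Without the 24 libraries 6 of 13 excitatory neuron markers were higher over regions.

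**Figure D4:**
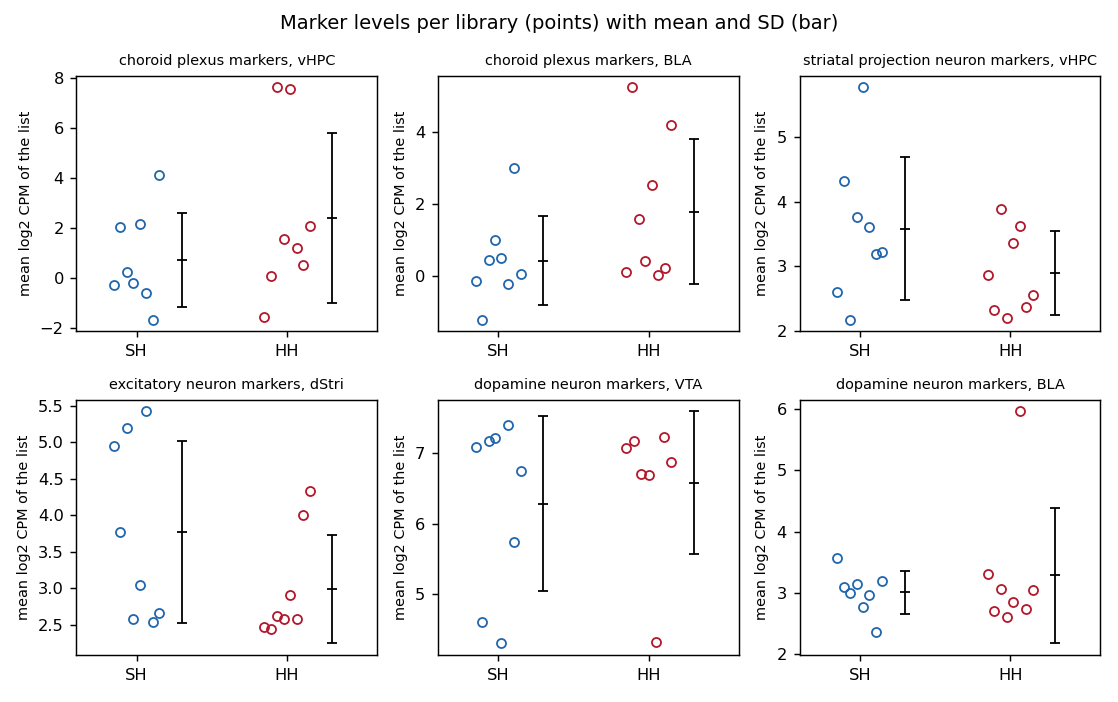
Mean log2 CPM of a marker list (y axis) per library for SH and HH (x axis) in 6 combinations of list and region; points are libraries and bars give mean and SD. In vHPC 2 HH libraries lie far above the rest for choroid plexus and 1 SH library is highest for the striatal list; 3 SH libraries are highest for the excitatory list in dStri, 1 HH library for dopamine markers in BLA, and 1 HH and 3 SH libraries lie low in VTA.

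Among processes, glucocorticoid-responsive genes leaned towards HH. Over regions 22 of 25 were higher, 2 at an unadjusted p under 0.05 against 2.36% of all genes, with a median of 0.08 against 0.00 over all genes. With the 24 libraries left out 23 of 25 were higher, with a median of 0.099. The count at an unadjusted p under 0.05 was less steady than the direction. It was 0 without the 24 libraries, 10 without SH mouse 10 and 1 to 4 without any other single mouse. With HH and SH mice alone it was 6, and with the mouse as a replicate block 11. Of all genes, 2.59% were higher at that threshold without SH mouse 10, 2.59% with HH and SH mice alone and 2.67% in the block fit. The block fit had a correlation of 0.0101 between libraries of a mouse, so it took regions almost as replicates. Hif3a differed by 0.21 ± 0.08, higher in all 6 regions, and Sgk1, a kinase induced by corticosterone, by 0.17 ± 0.08, with all 8 HH mice above the SH mean for each. Their differences without the 24 libraries were 0.11 and 0.14. Fkbp5, the cochaperone of the glucocorticoid receptor, differed by 0.10 ± 0.05. By region the count was 22 of 25 in vHPC, 21 in NAc, 20 in PFC, 19 in dStri, 16 in BLA and 11 in VTA. Heat shock and chaperone genes were higher in 23 of 24 over regions, with a median of 0.03 and 1 at an unadjusted p under 0.05 against 2.36% of all genes. Without the 24 libraries 22 of 24 were higher and none passed that threshold. Their direction was less steady when 1 mouse was left out. It was 17 of 24 higher without HH mouse 18, 18 without SH mouse 17 or 27, and 24 without HH mouse 1 or SH mouse 4. In vHPC 23 of 24 were higher, 5 of them at an unadjusted p under 0.05 against 4.63% of all genes, and without the 4 vHPC libraries 16 of 24 and none.

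Interferon and inflammation genes were higher in 24 of 27 in vHPC, 7 at an unadjusted p under 0.05 against 4.63% of all genes, with a median of 0.32. Without the 4 vHPC libraries they were higher in 21 of 27, with 1 at that threshold against 1.06% of all genes and a median of 0.094. In VTA 7 of 27 were higher, with a median of -0.09. Over regions 20 of 26 were higher, 3 at an unadjusted p under 0.05 against 2.36% of all genes: Serpina3n, the interleukin 1 receptor Il1r1 (0.28 ± 0.09) and the oncostatin M receptor Osmr (0.28 ± 0.11, higher in all 6 regions). Ifit2, an interferon-induced gene, was lower by -0.14 ± 0.05. The 3 higher members encode an acute phase inhibitor and cytokine receptors. The interferon-pathway members Ifit1, Ifit3, Irf9 and Usp18 had log2 differences of -0.03 to 0.08 over regions. The count was 14 of 26 without the 24 libraries, with Il1r1 at 0.18, Osmr at 0.23 and Ifit2 at -0.10.

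Cytosolic ribosomal protein genes, which make up the small and large subunit, were higher in 82 of 86 in dStri, 15 at an unadjusted p under 0.05 against 2.22% of all genes, with a median of 0.13. Their summed level was 9402, 10955 and 13224 CPM as lowest, median and highest in SH and 9853, 12308 and 16558 CPM in HH, with overlapping ranges. Without the 6 dStri libraries they were higher in 83 of 86, 60 at an unadjusted p under 0.05 against 4.56% of all genes, with a median of 0.26. In the other regions 26 to 53 were higher and the medians were -0.05 to 0.02, and in NAc the count went from 44 of 86 to 40 of 86 without the 6 libraries. Members of such a list share their level from library to library, so the 82 are not separate observations. In PFC 6 of 13 mitochondrially encoded genes were lower at an unadjusted p under 0.05, against 1.96% of all genes. These were mt-Co2 (-0.80), mt-Atp8 (-1.03), mt-Atp6 (-1.14), mt-Co3 (-0.95), mt-Nd3 (-0.65) and mt-Nd4l (-1.46), while mt-Nd1, mt-Co1 and mt-Cytb had differences of 0.02, 0.10 and -0.03.

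Immediate early genes, which neurons switch on within minutes of activity, showed no common direction. The median of 30 was 0.13 in VTA and -0.02 to 0.05 in the other regions, and 2 were lower and none higher at an unadjusted p under 0.05 in vHPC, against 2.69% of all genes. Over regions Dusp1, a phosphatase of MAP kinases, was 0.16 ± 0.07 higher, with all 8 HH mice above the SH mean. Fos itself had log2 differences of -0.26 in vHPC to 0.11 in PFC, and its level in PFC was 51.4 ± 7.69 CPM in HH and 47.6 ± 4.49 CPM in SH (SD, n = 8 each). Neuropeptide genes were lower in 10 of 13 over regions, with a median of -0.12, led by Trh and by Adcyap1 (-0.70 ± 0.33), the precursor of PACAP, but 9 of 13 were higher without the 24 libraries. Glutamate receptor genes were lower in 18 of 24 over regions, and in 14 of 24 without the 24 libraries, with Grin3a (-0.19 ± 0.07) and Gria3 (-0.09 ± 0.03) among the 3 at an unadjusted p under 0.05, against 2.42% of all genes. With the 24 libraries left out Adcyap1 was at -0.46, Grin3a at -0.095 and Gria3 at -0.039.

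Among opioid genes, Oprm1 was at 24.8 ± 4.49 CPM in HH and 23.4 ± 2.69 CPM in SH of NAc, its highest region, and at 14.3 ± 2.71 and 15.1 ± 2.72 CPM in VTA. Its log2 difference ran from -0.29 ± 0.33 in vHPC to 0.09 ± 0.10 in NAc. In the other regions it was -0.20 ± 0.14 in BLA, -0.19 ± 0.13 in dStri, -0.08 ± 0.14 in VTA and 0.07 ± 0.16 in PFC. The 95% interval in NAc, -0.12 to 0.29, leaves out a change of 1.5-fold, while that in vHPC, -0.96 to 0.38, does not. Of the 9 opioid peptide and receptor genes, 1 of 9 was at an unadjusted p under 0.05 by edgeR in dStri, against 5.06% of all genes in both directions. None was in the other regions. Over regions only Oprl1, the nociceptin receptor, was at that threshold by limma, against 4.78% of all genes. It differed by -0.07 ± 0.04, and by -0.011 without the 24 libraries. Dio2, which activates thyroid hormone in astrocytes, differed by -0.19 ± 0.15 in NAc to 0.20 ± 0.13 in BLA.

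**Figure D5:**
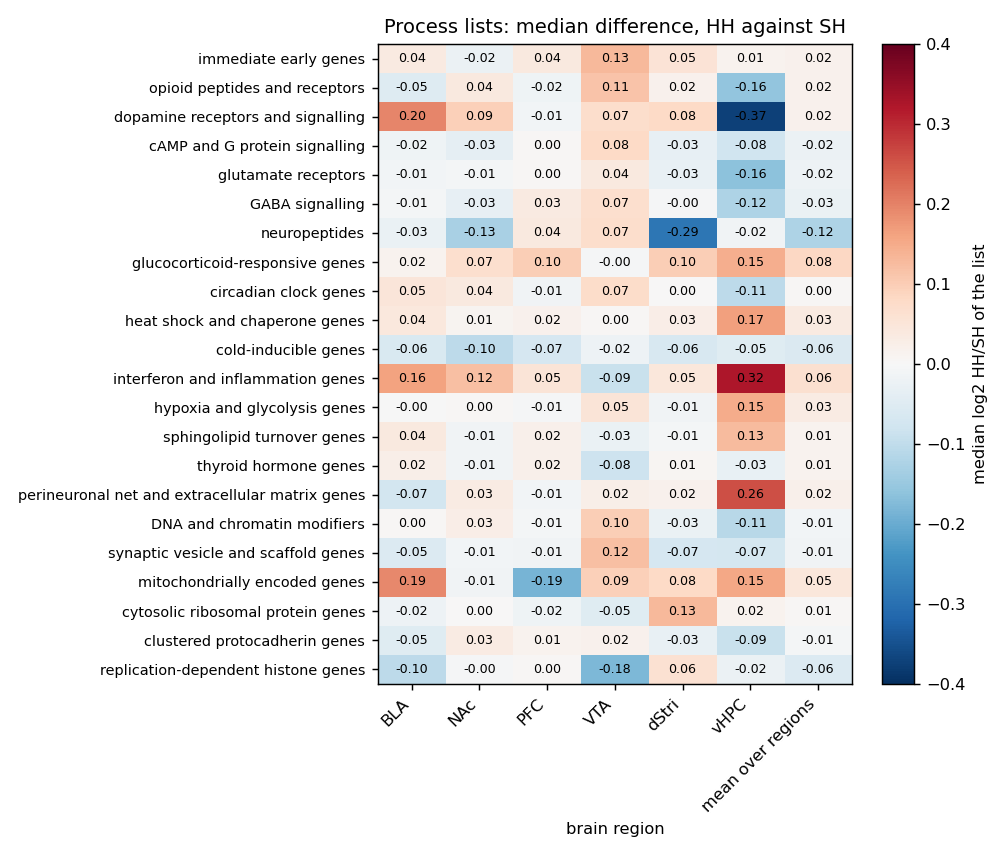
Median log2 difference of HH from SH over the measured members of 22 process lists (y axis) in each region and in the mean over regions (x axis), printed in each cell and coloured from blue (lower in HH) to red (higher). All libraries are used; the medians farthest from 0 are -0.37 for dopamine signalling and 0.32 for interferon and inflammation in vHPC and -0.29 for neuropeptides in dStri, which without the 4 or 6 libraries of these regions are -0.17, 0.094 and 0.14.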

How the data were processed

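Total RNA of the brain regions was made into strand-specific libraries depleted of ribosomal RNA, per the labels' protocols. The submitters' processing notes name build mm10 and the tools HISAT2, HTSeq, SAMtools and FastQC; versions and the annotation are not given in the sources used here. The values are raw read counts per Ensembl gene deposited by the authors in 1 table of 52636 genes, of which 52403 had a symbol in GENCODE M21. The other 7 files were not used, and 0 value columns lacked a sample.

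Groups come from the labels. Libraries under 5 M counts were left out (VTA of HH mouse 7, where the 10 most abundant genes took 73.9% of counts). Within each region the 4 groups of 30 d mice were fitted together in R 4.3.3 with edgeR 4.0.16 (filter at a minimum count of 10, TMM factors, robust quasi-likelihood fit). CPM use the TMM factors, and ± after a log2 difference is its SE. For the mean over regions, and for a region against the others, limma 3.58.1 was run on log2 CPM with a prior count of 1, centred per gene and region, 1 value per mouse; HH mouse 7 was averaged over its other regions. Benjamini-Hochberg adjusted p-values under 0.05 were called. DESeq2 1.42.0 was an alternative. The edgeR fit of VTA and a limma fit on 1 value per mouse were tested on simulated data. The edgeR fits of the other regions, DESeq2 and the fit with the mouse as a block were not. The simulated limma values had the same spread at every level, so the variance trend was not checked. The limma variance trend was first fitted on the centred means, which are all near 0, and was corrected to the mean log2 CPM after results had been seen; both versions called 0 genes. P-values measure the spread between mice. Over 329 pairs of libraries of a group, chi-square divided by its degrees of freedom was at least 8.56, so none looked like a repeat of another.

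Named genes average 1 CPM or more and carry a symbol that is not a model name: per region the 3 higher and 3 lower with the smallest p, over regions the 10 and 10, for a region against the others the 2 and 2, for the interaction the 1 and 1, list members at an unadjusted p under 0.05 over regions (up to 4 a list), genes past it in the most regions, and Oprm1, Fos, Fkbp5, Acer2, Dio2 and Ttr. Drd1, Drd2, the mitochondrial and interferon-induced genes, Gm33533 and Klhl34 fall outside this rule and were picked with their values in view. The comparison, its members and the lists were chosen with earlier results of these data known, and the ribosomal protein, protocadherin and histone lists and the fits without libraries that differ in tissue markers were added after seeing the data. Lists are described by counts and medians and were not tested; symbols shared by several Ensembl genes count each gene. Some genes that this rule names are not reported here.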

Additional observations from a re-analysis of the deposited data

Results flagged for a closer look

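In 24 groups of libraries or mice, 9.38% of those examined, 1 value lay apart from the others by Dixon's criterion, where chance gives about 1 in 20. None of these was given an explanation. On the log2 CPM scale, in BLA the dopamine transporter Slc6a3 was at 6.86 in HH mouse 16, Cstad at -0.59 in SH mouse 10 (low), and Col1a1 at 3.99 and Oprm1 at 4.79 in SH mouse 19. Fos was at 5.52 in SH mouse 30 and Ttr at 8.97 in SH mouse 17 of the same region. In NAc Rerg was low in HH mouse 18 (2.52) and Fos low in HH mouse 25 (3.38). Steap4 was low in HH mouse 1 of dStri (-1.15), and Acer2 low in SH mouse 19 of vHPC (2.27).

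In the mean over regions of centred log2 CPM, Fas (-0.70) and Fam205c (-0.19) were low in SH mouse 30, and Usp34 was high in SH mouse 29 (0.15). Xdh (0.27) and Rnu12 (0.75) were high in HH mouse 25.

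Among markers, on the log2 scale of their summed CPM, choroid plexus genes were high in SH mouse 17 of BLA (9.29), SH mouse 24 of PFC (3.56) and HH mouse 7 of dStri (5.99). Meningeal fibroblast genes were high in SH mouse 19 of BLA (7.91) and HH mouse 18 of NAc (6.52). Striatal neuron genes were high in SH mouse 27 of vHPC (10.5) and low in HH mouse 25 of VTA (8.74). Dopamine neuron genes were high in HH mouse 16 of BLA (8.84) and low in HH mouse 25 of VTA (9.82).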

How the results depend on the processing

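The count of called genes was 0 in every region, over regions, against the other regions and for the comparison with the saline challenge, and all but 4 of the recomputed counts were 0 too. These 4 were 1 gene each by DESeq2 in NAc (Cdkl4), in vHPC (Gm33533) and for the comparison with the saline challenge in VTA (Nars2), and 1 gene (Klhl34, -0.52 ± 0.09, adjusted p = 0.0204 by limma) in dStri against the other regions without 10 libraries; the cause was not tested. Those 10 were BLA of HH mice 1, 5 and 16, VTA of HH mouse 25, dStri of SH mice 10, 19 and 27, and vHPC of HH mice 18 and 21 and SH mouse 27. That set and the fits that name mice here were chosen unevenly, since libraries of the other group with similar marker levels stayed in, which favours a change of sign in the markers themselves. Without the 24 libraries chosen by the same level in both groups Klhl34 was at -0.46, with an adjusted p of 0.233 by limma. With the mouse as a replicate block over all libraries, limma called 0 genes, with 890 at an unadjusted p under 0.05 and a correlation of 0.0101 between libraries of a mouse. HH and SH are different mice, so their numbers pair no samples. Leaving out each mouse in turn gave 0 called genes over regions in all 16 fits; it was not run per region, where no gene was called.

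Of the genes named, 32 recomputed differences changed sign, none of them called; the cause was not tested. By DESeq2 Slc6a3 in BLA was at -1.03. Without the 24 libraries Slc6a3 (-1.20) and Fkbp5 (0.025) in BLA, Fos (0.062) and Ttr (0.056) in NAc, Fkbp5 (-0.021) and Dio2 (0.15) in VTA, Fos (-0.16) and Dio2 (0.12) in dStri, Dio2 (0.011) in vHPC, and Timp3 (-0.024), Fos (0.052) and Dio2 (0.047) over regions did so. Without HH mice 1 and 5 in BLA Fkbp5 was at 0.0280 and Ttr at -0.16, and without mouse 16 as well Slc6a3 was at -1.07 and Fkbp5 at 0.0305. Fos in NAc was at 0.089 without SH mice 19 and 27. In VTA Oprm1 was at 0.18 with HH mouse 7 kept. Dio2 in dStri was at 0.017 without SH mice 10, 19 and 27. With the code set as a covariate Fos in dStri was at -0.088 and Oprm1 in vHPC at 0.043. In vHPC without HH mice 18 and 21 Dio2 was at 0.066 and Ttr at -1.53, and without SH mouse 27 as well at 0.046 and -1.48. Over regions Timp3 was at -0.015 without the 10 libraries, and Fos ranged from -0.079 to 0.058 as each mouse was left out.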

Other observations

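In VTA 22 of 24 synaptic vesicle and scaffold genes, which form the machinery of transmitter release and the postsynaptic density, were higher in HH, 3 of them at an unadjusted p under 0.05 by edgeR against 2.79% of all genes, with a median log2 difference of 0.12. Without the 4 VTA libraries low in dopamine neuron markers 15 of 24 were higher and none passed that threshold, with a median of 0.034.

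Replication-dependent histone genes were lower in 46 of 53 in VTA, 3 at an unadjusted p under 0.05 against 2.38% of all genes, with a median of -0.18. Without the 4 libraries 45 of 53 were lower, with 3 against 1.79% and a median of -0.17. In BLA 37 of 53 were lower, 6 at that threshold against 1.89%, with a median of -0.10. Without the 4 BLA libraries 30 of 53 were lower, with 1 against 1.09% and a median of -0.065. In dStri 37 of 55 were higher, 7 at that threshold against 2.22%, with a median of 0.06; without the 6 dStri libraries 50 of 56 were higher, with 11 against 4.56% and a median of 0.26.

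Clustered protocadherin genes, which encode neuronal recognition proteins, were lower in 39 of 55 in vHPC, 6 at that threshold against 2.69%, with a median of -0.09; without the 4 vHPC libraries 32 of 56 were lower, with 5 and -0.036. In the other regions 29 of 55 in VTA, 30 of 55 in PFC and 34 of 56 in NAc were higher, and 37 of 56 in BLA and 36 of 55 in dStri lower. Oligodendrocyte markers were higher in 15 of 15 in BLA, 1 at that threshold against 1.9%, with a median of 0.26, and in 12 of 15 with none and 0.070 without the 4 BLA libraries. They were not limited to BLA, and over regions 13 of 15 were higher, with a median of 0.13. None of these genes passed after adjustment over all genes.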
